A study of Mus musculus with 10 samples.

Results

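Interferons are cytokines that cells release on sensing viral nucleic acid, and they act through receptor subunits that activate STAT and IRF transcription factors. Those factors bind short promoter elements and switch on a broad set of antiviral genes, many of which are induced by type I and type II interferons alike. Lung epithelial cells both make and answer interferons, and low basal expression of the set is found in many tissues without infection. Expression of 46 genes of this kind, taken as a named list of receptors, signalling factors, sensors and effectors, was examined in 10 expression arrays of sorted mouse lung cells. The array's annotation gave 42 of the 46 a probe set with that gene's symbol alone, out of 22180 genes measured in all. Irf5, Oas1a and Gbp2 appeared only on probe sets that carry a second symbol, and Ifi44 was matched to no probe set here, so these 4 have no value.

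All samples were labelled as type 2 alveolar epithelial cells (AEC2s), the surfactant-making cells of the alveolus, from lungs at postnatal day 4. The SP-C+ group holds 5 samples of YFP-positive cells from SftpcCreERT2-R26REYFP mice after 24 h of lineage tracing, where an inducible Cre is driven by the surfactant protein C gene. The Axin2+ group holds 5 samples of TdTomato-positive, EpCAM-positive, CD31-negative and CD45-negative cells from Axin2CreERT2-TdTom mice, where the inducible Cre is driven by Axin2, a Wnt target gene. No treatment beyond the induction of Cre is described here. The agent and dose of that induction and, for Axin2+ mice, its interval are not given here. Mice of both lines were of mixed stock (C57BL/6, 129S6 and CD-1 parents), and a shared description of all samples also mentions postnatal day 3 and adult cells. Line, reporter and sorting gate differ between the groups and cannot be told apart from the cell label. The comparison therefore asks how the Axin2+ samples differ from the SP-C+ samples in this gene set, whatever cells each holds.

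All 12 AEC2 markers examined lay above the array's median gene in both groups, and 2 of them were lower in Axin2+ arrays (list means 12.91 to 12.97 in SP-C+ and 12.69 to 12.82 in Axin2+). The Axin2+ arrays also held more signal of other epithelial cells. Of 12 type 1 alveolar cell (AEC1) markers 12 were higher there, with list means of 8.99 to 9.44 in SP-C+ and 11.43 to 11.81 in Axin2+ arrays, and of 11 ciliated cell markers 10 were higher, with list means of 5.94 to 6.13 and 8.56 to 8.87. Of 8 club cell markers 6 were higher (7.90 to 8.26 and 9.08 to 9.60). In bulk RNA, fewer cells of a type and less RNA per cell cannot be told apart. Of 17 leukocyte markers Csf1r was higher (2.50 ± 0.15) and Adgre1 lower (-0.26 ± 0.08). The list means, which include Csf1r, overlapped (5.91 to 6.32 in SP-C+, 5.90 to 6.04 in Axin2+ arrays). Of the 17 differences 14 were negative and 3 positive, at a median of -0.19, and 5 had an unadjusted p under 0.05 in limma. Among the 17 markers Ptprc, the gene of the sort marker CD45, measured 4.24 ± 0.35 (SD, n = 5) in SP-C+ and 3.94 ± 0.17 in Axin2+ arrays. Of 10 endothelial markers 0 passed in limma and 1, Vwf, had an unadjusted p under 0.05. SP-C+ replicate 1 had the highest endothelial list mean (7.34, against 6.13 to 6.69 in the other SP-C+ arrays). Of 10 mesenchymal markers 1, Pdgfra, was lower (-0.49 ± 0.13), with list means of 6.08 to 6.62 in SP-C+ and 6.05 to 6.32 in Axin2+ arrays. The part of these cell types in the interferon gene differences was not tested.

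Of the 42 interferon genes, 14 were higher in Axin2+ arrays, 1 was lower and 27 did not pass an adjusted p under 0.05 in limma, a linear model with moderated variances fitted over all genes. Over all genes, 8.61% were higher and 8.95% lower by the same rule, 17.6% in all; with each array centred on its median these shares were 7.04% and 19.9%. All levels are log2 values, differences are Axin2+ minus SP-C+ on that scale, and errors of differences are moderated standard errors (SE) at n = 5 per group. The median difference was 0.19 over the interferon genes and -0.04 over all genes. At least 2-fold rises were seen in 4 of the 42, Ifit2, Oasl2, Usp18 and Ifit1, against 2.89% of all genes, and 0 were called and at least 2-fold lower, against 0.338%. Every Axin2+ array lay above every SP-C+ array in 14 of the 42, against 7.38% of all genes. These were the same 14 that were called, and the call used the same arrays, so the separation is no separate support. Ifngr1 was the 1 member with every Axin2+ array below every SP-C+ array, which held for 7.66% of all genes. By role, 11 of 17 measured antiviral effectors were higher, while 0 of 4 receptor subunits, 0 of 6 signalling transcription factors and 0 of 5 interferon-inducible GTPases were higher. Whether roles differ from one another was not tested.

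**Figure D1:**
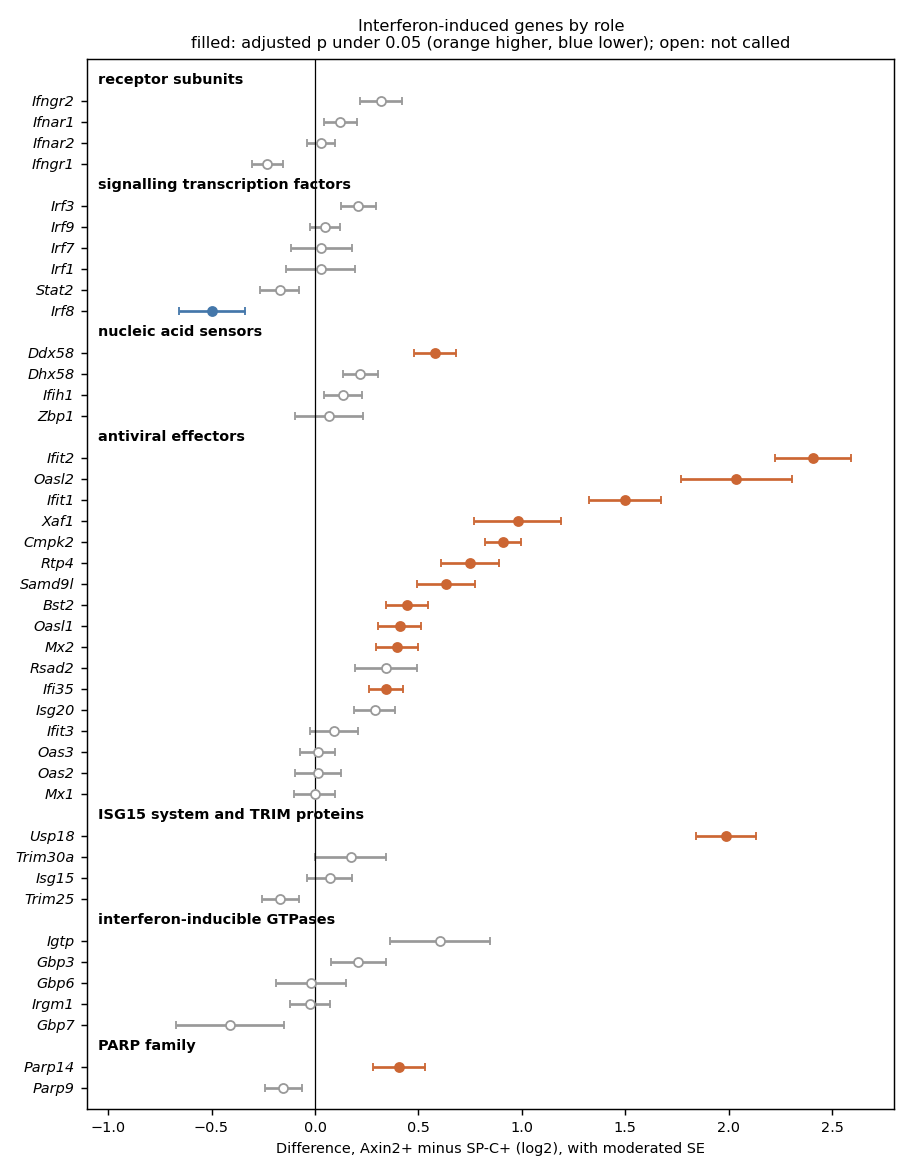
Difference between Axin2+ and SP-C+ arrays (log2, horizontal axis) for each of the 42 measured interferon genes, in blocks by role, with the moderated SE as error bars; filled points passed an adjusted p of 0.05. Effector genes and Usp18 reach 0.34 to 2.41 where called, and the receptors sit between -0.23 and 0.32 with none called.

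The receptor subunit genes did not pass in either direction in limma, though 2 of the 4 had an unadjusted p under 0.05. Ifnar1 and Ifnar2, which form the type I interferon receptor, differed by 0.12 ± 0.08 (adjusted p = 0.345 in limma) and 0.03 ± 0.07 (adjusted p = 0.831). Ifngr1, the ligand-binding chain for interferon gamma, measured 10.92, 10.83, 10.69, 10.74 and 10.67 in SP-C+ replicates 1 to 5, against 10.62, 10.58, 10.43, 10.54 and 10.54 in Axin2+ replicates 1 to 5. Its groups did not overlap, with Axin2+ lower, yet the difference of -0.23 ± 0.08 lay just outside the threshold (adjusted p = 0.0528 in limma). It stayed outside in 9 of 10 fits without 1 array and in 8 of 13 other alternatives. It passed without SP-C+ replicate 5 (-0.25, adjusted p = 0.0464 in limma) and, for example, with median centring (-0.32, adjusted p = 0.00676). Its partner Ifngr2 differed in the other direction (0.32 ± 0.10) and also lay just outside the threshold (adjusted p = 0.0507 in limma), with overlapping groups. Ifngr2 stayed outside in 8 of 10 fits without 1 array and in 9 of 13 other alternatives, and passed in the rest.

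Among the transcription factors that carry the signal, Stat2 and Irf9, subunits of the complex that binds type I response elements, differed by -0.17 ± 0.09 and 0.05 ± 0.07 and did not pass. Irf7, the amplifier of type I interferon production and itself interferon-induced, measured 6.94, 7.52, 7.36, 7.03 and 6.88 in SP-C+ and 7.09, 7.10, 7.24, 6.90 and 7.55 in Axin2+ arrays. These ranges overlapped fully, and the 95% interval of the difference was -0.29 to 0.35. Irf1, an early target of interferon gamma, differed by 0.03 ± 0.17, and Irf3, the factor activated directly by sensors, by 0.21 ± 0.08 (adjusted p = 0.114 in limma). Irf8, best known from myeloid and B lineage cells, was the 1 member called lower (-0.50 ± 0.16, adjusted p = 0.0497 in limma). Its SP-C+ values were 6.21, 6.14, 6.38, 5.39 and 5.79 and its Axin2+ values 5.42, 5.31, 5.47, 5.58 and 5.64. SP-C+ replicates 1, 2 and 3 were high and replicates 4 and 5 lay near or among the Axin2+ arrays. The same order, with each of replicates 1, 2 and 3 above 4 and 5, was seen in 6 of the 17 leukocyte markers and not in the others. How often this order occurs over all genes was not counted. The T cell marker Cd3e (6.34, 6.37, 6.18, 5.30 and 5.44 in SP-C+ replicates 1 to 5) and the B cell marker Cd79a (6.14, 5.90, 6.09, 5.52 and 5.73) showed it. Ptprc (4.33, 3.99, 3.97, 4.08 and 4.81) did not. The part of leukocytes in the Irf8 difference was not tested. The call was lost without any 1 of SP-C+ replicates 1, 2 and 3 or of the 5 Axin2+ arrays (differences -0.40 to -0.54, adjusted p = 0.0599 to 0.112). A second Irf8 probe set differed by -0.07 ± 0.12.

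One of the 4 nucleic acid sensors rose. Ddx58 encodes RIG-I, which detects viral RNA with free triphosphate ends. It measured 8.67, 8.86, 8.69, 9.11 and 9.01 in SP-C+ and 9.29, 9.35, 9.52, 9.51 and 9.57 in Axin2+ arrays, without overlap. The difference was 0.58 ± 0.10 (1.49-fold, adjusted p = 0.00142 in limma). Ifih1, the sensor MDA5 for long double-stranded RNA, differed by 0.14 ± 0.09 and its regulator Dhx58 by 0.22 ± 0.09, and neither passed. Zbp1, which binds left-handed nucleic acid, spread from 6.29 to 7.34 in Axin2+ arrays and differed by 0.07 ± 0.16.

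The antiviral effectors held the steepest rises, and close relatives parted. The Ifit genes encode tetratricopeptide proteins that bind viral RNA and lie near one another on chromosome 19. Ifit2 measured 4.99, 4.90, 4.53, 4.62 and 5.47 in SP-C+ and 7.34, 6.87, 7.65, 7.13 and 7.54 in Axin2+ arrays. The lowest Axin2+ array exceeded the highest SP-C+ array, and the gene was 5.30-fold higher (2.41 ± 0.18, adjusted p = 9.46e-07 in limma). Ifit1 read 5.45, 5.78, 4.88, 5.77 and 5.23 against 6.80, 6.86, 6.81, 6.74 and 7.39, again without overlap, and was 2.83-fold higher (1.50 ± 0.18, adjusted p = 5.51e-05). Ifit3, in contrast, read 7.49, 7.37, 7.42, 7.51 and 7.41 against 7.67, 7.80, 7.63, 7.08 and 7.48. Its groups overlapped and the 95% interval of the difference was -0.16 to 0.35. In SP-C+ arrays Ifit1, Ifit2 and Oasl2 lay below the median gene on all 5 arrays. Of the effectors taken up below, the called Oasl1, Mx2 and Bst2 lay below it on every array of both groups. So did Oas2, Oas3, Mx1 and Rsad2, which were not called. No detection calls were used here, so whether these levels exceed background is not known. Folds and differences of these genes, and contrasts between relatives among them, are those of the deposited values. Exact two-sided permutation p was 0.00794 for Ifit1 and for Ifit2, the smallest that 252 assignments of 10 arrays allow, and 0.540 for Ifit3.

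Oas proteins make oligoadenylates that switch on RNA cleavage, and the Oas-like proteins are relatives of which some have lost that activity. Oasl2 measured 5.21, 5.17, 4.68, 4.92 and 5.11 in SP-C+ and 6.61, 6.69, 6.90, 6.80 and 8.28 in Axin2+ arrays. It was 4.10-fold higher (2.04 ± 0.27, adjusted p = 1.48e-04 in limma), and without Axin2+ replicate 5, the highest array, the difference was 1.73 ± 0.12. Its neighbour Oasl1 rose less (0.41 ± 0.10, adjusted p = 0.0157), from 5.01 to 5.53 in SP-C+ to 5.66 to 5.93 in Axin2+ arrays. Oas2 (4.53 to 4.99 against 4.50 to 5.02) and Oas3 (5.62 to 5.95 against 5.62 to 5.93) covered the same ranges in both groups, with differences of 0.01 ± 0.11 and 0.01 ± 0.09. The intervals of both differences lay within -0.23 to 0.25.

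The Mx genes encode dynamin-like GTPases that trap viral particles. Mx2 read 4.81, 5.11, 5.08, 4.88 and 4.76 in SP-C+ and 5.17, 5.33, 5.15, 5.52 and 5.45 in Axin2+ arrays, a rise of 0.40 ± 0.10 (adjusted p = 0.0167 in limma) between ranges that nearly touch. Mx1 read 4.23, 4.15, 4.18, 4.37 and 4.24 against 4.34, 3.91, 4.25, 4.21 and 4.45, with an interval of -0.22 to 0.21. Without SP-C+ replicates 4 and 5, Mx2 did not pass (0.32, adjusted p = 0.0783).

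**Figure D2:**
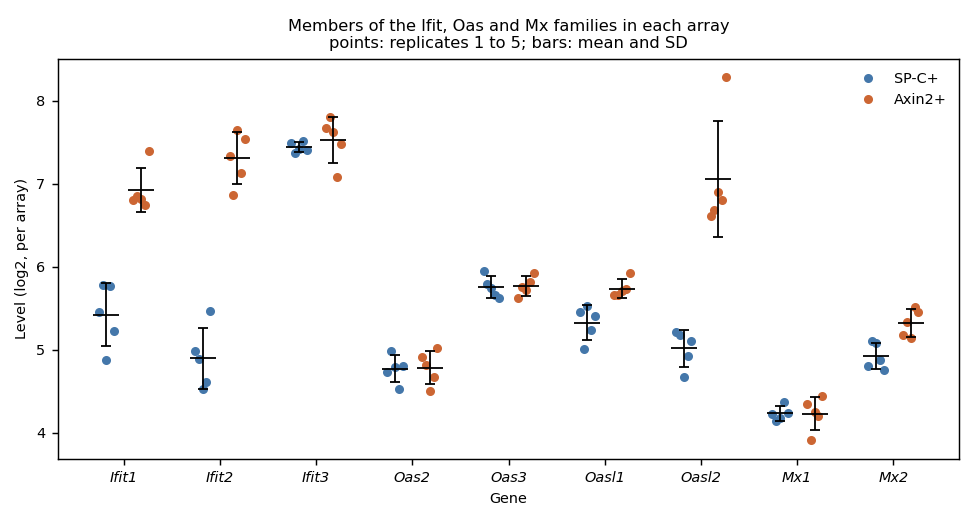
Log2 level (vertical axis) of Ifit, Oas and Mx family genes in each array, with SP-C+ arrays in blue and Axin2+ arrays in orange; points run from replicate 1 to 5 and bars give mean and SD. Ifit1, Ifit2 and Oasl2 separate widely, Oasl1 and Mx2 narrowly, and Ifit3, Oas2, Oas3 and Mx1 overlap; heights of different genes are not comparable.

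Further effectors rose. Cmpk2, a mitochondrial nucleotide kinase gene, measured 7.04, 7.38, 7.29, 7.36 and 7.34 in SP-C+ and 8.12, 8.06, 8.22, 8.19 and 8.36 in Axin2+ arrays. That is a rise of 0.91 ± 0.09 (adjusted p = 9.48e-06 in limma), without overlap. Its neighbour on chromosome 12 is Rsad2, which encodes viperin, a radical enzyme that makes a chain-terminating nucleotide. Rsad2 ranged from 5.31 to 6.09 against 5.78 to 6.31, below the median gene on every array of both groups. It did not pass (0.34 ± 0.15, adjusted p = 0.143 in limma). Xaf1, a pro-apoptotic gene, rose by 0.98 ± 0.21, Rtp4, a receptor-transporting protein gene, by 0.75 ± 0.14, and Samd9l, a restriction factor gene, by 0.63 ± 0.14. Bst2, which encodes the virus-tethering protein tetherin, rose by 0.44 ± 0.10, and Ifi35 by 0.34 ± 0.08. The adjusted p-values of these 5 genes were 0.00239 to 0.0101. Xaf1 passed with all arrays but not without SP-C+ replicates 1, 2 and 3 (0.69, adjusted p = 0.119), nor did Bst2 (0.36, adjusted p = 0.0598) or Ifi35 (0.28, adjusted p = 0.123). A second Ifi35 probe set differed by 0.04 ± 0.14, and with the mean over both the call was lost (0.19, adjusted p = 0.194). Isg20, an exonuclease gene, differed by 0.29 ± 0.10 and did not pass (adjusted p = 0.0688), but passed with quantile normalization (0.31, adjusted p = 0.0472) and without SP-C+ replicate 4 (0.34, adjusted p = 0.0331).

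Promoters of the set were compared for the interferon-stimulated response element, the site bound by STAT and IRF complexes, because genes with and without a rise could be set side by side. The motif searched was GAAANNGAAA on either strand, in RefSeq windows (GRCm38.p6) from 250 bases before to 50 after each gene's start. Of the 46 genes, 36 were matched to a window, and 16 of them (44.4%) held the motif, against 3.99% of 27025 genes with a window. The motif was present in 3 of 10 higher genes with a window (Ifit1, Bst2 and Ddx58) in 11 of 21 that did not pass, in 2 of the 4 with no value and not in Irf8. The pattern TTCNNNGAA, the site of STAT dimers, reads the same on both strands; it was found in 11 of the 36 and in 9.55% of all genes, and its matches can overlap the first motif. Stretches from before the start of 4 genes are printed because they carry the motif while their genes fell on both sides of the comparison. Each runs 5′ to 3′ on the gene's strand from 20 bases before to 20 bases after the motif letters, which are in capitals; adjoining capitals are overlapping matches.
Ifit1, higher in Axin2+, chr19:34640765-34640833, plus strand: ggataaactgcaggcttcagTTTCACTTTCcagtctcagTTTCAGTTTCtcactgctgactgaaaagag
Bst2, higher in Axin2+, chr8:71537567-71537622, minus strand: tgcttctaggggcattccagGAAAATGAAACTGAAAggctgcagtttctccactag
Ifit3, not called, chr19:34583353-34583436, plus strand: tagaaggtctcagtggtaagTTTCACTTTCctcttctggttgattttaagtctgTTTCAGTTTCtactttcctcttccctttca
Isg15, not called, chr4:156200855-156200916, minus strand: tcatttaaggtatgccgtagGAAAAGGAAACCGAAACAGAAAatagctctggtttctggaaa
The Ifit1 and Ifit3 stretches hold 2 separate matches each, Bst2 holds 2 that overlap and Isg15 holds 3 that overlap. A match is a string of letters and not a measured binding site. In the windows of Ifit2, Oasl2, Oasl1, Cmpk2, Xaf1, Samd9l and Ifi35 these letters were not found, and Usp18, Rtp4, Mx2 and Parp14 were not matched to a window.

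ISG15 is a small ubiquitin-like protein that is attached to other proteins after interferon exposure and removed by the protease USP18, which also damps type I receptor signalling. Usp18 measured 7.65, 7.55, 7.32, 7.04 and 7.28 in SP-C+ and 9.13, 9.04, 9.55, 9.34 and 9.71 in Axin2+ arrays. It was 3.96-fold higher (1.99 ± 0.15, adjusted p = 6.50e-07 in limma), without overlap (SD 0.24 in SP-C+ and 0.28 in Axin2+ arrays). Isg15 itself read 4.91, 4.71, 4.92, 5.13 and 4.64 against 4.80, 4.80, 4.90, 4.95 and 5.21. These groups overlapped, the interval of the difference was -0.17 to 0.31, and the gene lay below the median gene on all 10 arrays. Of 3 genes for enzymes that attach ISG15, chosen after their values were seen, 2 were higher and 1 did not pass. Uba7, the activating enzyme, rose by 1.04 ± 0.12 (6.65 to 7.31 in SP-C+, 8.03 to 8.25 in Axin2+ arrays) and Ube2l6, the conjugating enzyme, by 0.62 ± 0.14 (6.41 to 7.25 and 7.36 to 7.79). Their adjusted p-values in limma were 3.64e-05 and 0.00856. Herc6, the ligase, ranged from 7.22 to 7.89 in SP-C+ and from 7.82 to 8.03 in Axin2+ arrays, which overlap, and did not pass (0.22 ± 0.12, adjusted p = 0.243). Of the TRIM ubiquitin ligase genes, Trim25, which modifies RIG-I, differed by -0.17 ± 0.09 and Trim30a by 0.17 ± 0.17, and neither passed.

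**Figure D3:**
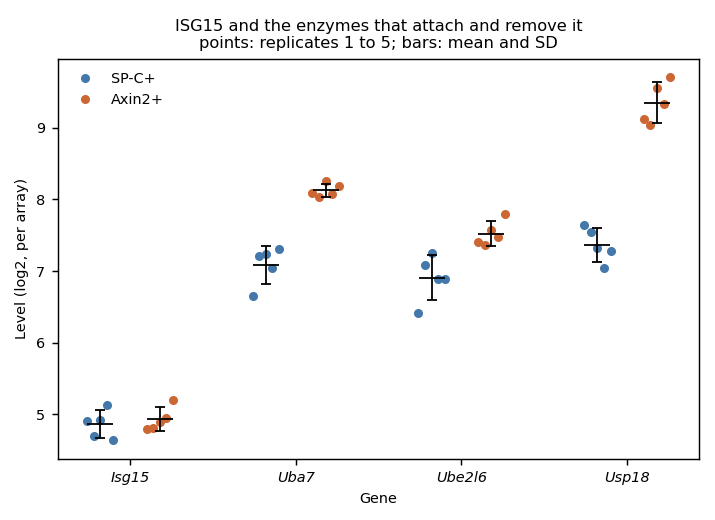
Log2 level (vertical axis) of Isg15 and of the enzyme genes Uba7, Ube2l6 and Usp18 in each SP-C+ (blue) and Axin2+ (orange) array, with mean and SD. The 3 enzyme genes shown separate without overlap, whereas Isg15 stays between 4.64 and 5.21 in both groups. The ligase gene Herc6 is not shown, and its groups overlap (7.22 to 7.89 in SP-C+ and 7.82 to 8.03 in Axin2+ arrays).

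Interferon-inducible GTPases attack the vacuoles of intracellular pathogens and are known chiefly as targets of interferon gamma. Of the 5 measured 0 passed in limma, and 1, Igtp, had an unadjusted p under 0.05. Igtp read 6.10, 5.99, 5.48, 5.99 and 6.59 in SP-C+ and 6.66, 6.48, 6.21, 6.30 and 7.52 in Axin2+ arrays, a difference of 0.60 ± 0.24 (adjusted p = 0.113 in limma) that was 0.38 without Axin2+ replicate 5. Gbp7 read 6.49, 6.14, 5.96, 6.55 and 7.32 against 5.66, 6.18, 5.79, 5.94 and 6.85. In both genes replicate 5 was the highest array of each group. Gbp3, Gbp6 and Irgm1 differed by 0.21 ± 0.13, -0.02 ± 0.17 and -0.02 ± 0.10. Among the PARP family, Parp14, a mono-ADP-ribosyltransferase gene, was higher by 0.41 ± 0.13 (adjusted p = 0.0432), from 7.10 to 7.75 in SP-C+ to 7.81 to 8.25 in Axin2+ arrays. That call was lost in 8 of the 10 fits that left out 1 array, those without SP-C+ replicate 1, 2 or 3 or any of the 5 Axin2+ arrays (adjusted p = 0.0517 to 0.102), and without SP-C+ replicates 1, 2 and 3 (0.24, adjusted p = 0.263). Its partner Parp9 differed by -0.15 ± 0.09.

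Of the 27 genes that did not pass, 21 had a 95% interval within 0.5 on either side of 0. Larger shifts of the deposited values lay outside the interval for each of these. The others of the 27 were Ifngr2, Rsad2, Isg20, Trim30a, Gbp7 and Igtp, whose intervals reached further. Among the 21, Dhx58, Oas2, Oas3, Mx1, Isg15, Gbp3, Gbp6 and Irgm1 lay below the median gene on every array of both groups. Whether their levels exceed background is not known, so for them a narrow interval cannot exclude a difference in transcript level.

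Arrays differed within the groups as well. The mean over the 42 genes was 6.88, 6.92, 6.83, 6.89 and 6.95 in SP-C+ replicates 1 to 5 and 7.19, 7.15, 7.22, 7.20 and 7.50 in Axin2+ replicates 1 to 5. Axin2+ replicate 5 stood apart from the other 4 and was the highest Axin2+ array for 31 of the 42 genes (73.8%), against 20.8% of all genes. It exceeded the mean of the other Axin2+ arrays by a median of 0.235 over the 42 genes and by 0.00692 over all genes. The excess was widest in Oasl2 (1.53), Igtp (1.11), Gbp7 (0.95) and Zbp1 (0.66), of which only Oasl2 was called between groups. Ifit2, the gene with the largest difference between groups, was 0.29 above the mean of the other 4 in replicate 5 and highest in replicate 3, while Xaf1 (-0.30) and Samd9l (-0.03) were lower in replicate 5. Without this array 13 of the 14 higher genes passed, the exception being Parp14 (0.33, adjusted p = 0.102 in limma). The AEC1 and ciliated list means of replicate 5 were 11.63 and 8.80, within the range of the other Axin2+ arrays, and its leukocyte list mean was 5.96. Its mesenchymal list mean, 6.32, was the highest of the Axin2+ arrays (6.05 to 6.25 in the others). The part of these cells in the pattern was not tested.

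**Figure D4:**
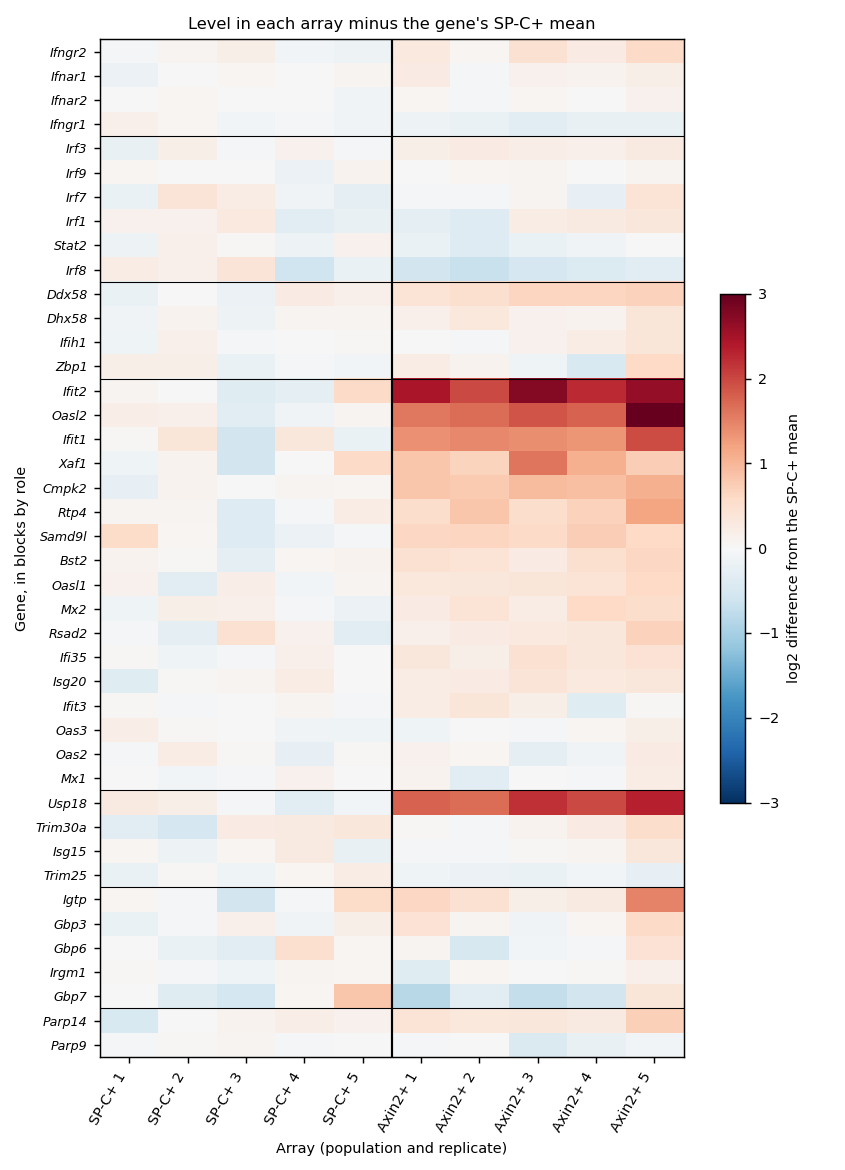
Log2 level of each interferon gene in each array minus that gene's SP-C+ mean (colour), with genes in blocks by role and SP-C+ arrays left of the vertical line. Ifit2, Oasl2, Ifit1 and Usp18 are high in all 5 Axin2+ arrays, and Igtp, Zbp1 and Gbp7 are higher in Axin2+ replicate 5 than in the other Axin2+ arrays.

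**Figure D5:**
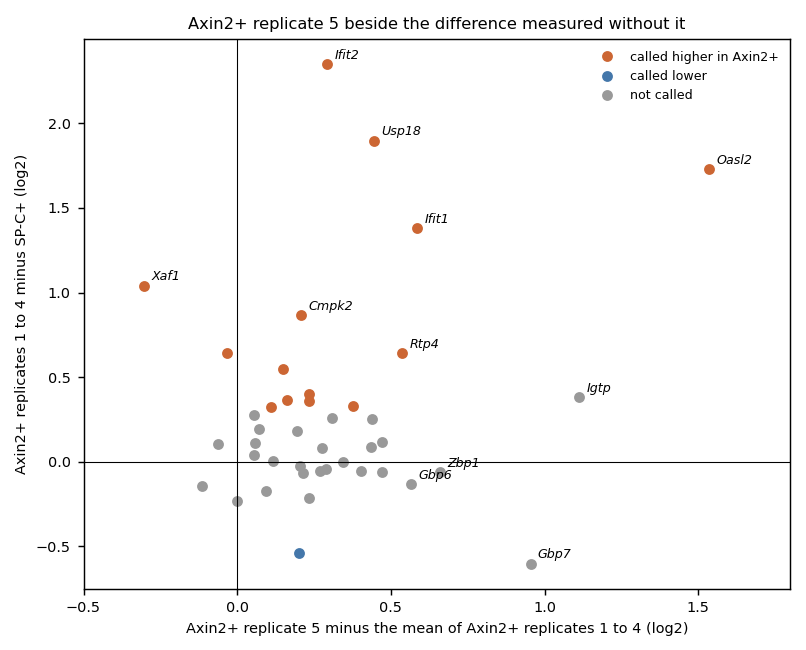
Excess of Axin2+ replicate 5 over Axin2+ replicates 1 to 4 (log2, horizontal axis) against the difference of replicates 1 to 4 from SP-C+ (log2, vertical axis), with 1 point for each of the 42 genes. Oasl2 is far along both axes, Ifit2 and Usp18 mainly along the vertical axis, and Igtp and Gbp7 mainly along the horizontal one.

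The fit was repeated without SP-C+ replicates 4 and 5, and without replicates 1, 2 and 3, a split that no label defines. Of the 14 higher genes, 13 passed without replicates 4 and 5 (9.57% of all genes higher, 9.82% lower), and 10 passed without replicates 1, 2 and 3 (6.78% higher, 6.02% lower). Ifit1, Ifit2, Oasl1, Oasl2, Cmpk2, Rtp4, Samd9l, Ddx58 and Usp18 passed in both. Ifit2 was at 2.50 and 2.27 in these fits and Usp18 at 1.85 and 2.19.

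Other genes of the pathway were read from lists. Of 115 further names 100 were measured, and 15 were higher, 5 lower and 80 did not pass, at a median difference of -0.02. Over all genes 8.61% were higher and 8.95% lower. None of 17 interferon ligand genes passed in limma, and 1, Ifnab (-0.45 ± 0.16), had an unadjusted p under 0.05. They ranged from -0.45 to 0.17. By group mean 5 of the 17 lay above the median gene in each group. Ifnb1, the first type I interferon made after sensing, read 3.17 to 3.58 in SP-C+ and 3.06 to 3.66 in Axin2+ arrays, and Ifng 5.13 to 5.53 and 4.99 to 5.54. Both genes lay below the median gene on every array. Whether ligand levels exceed background is not known, so the missing calls cannot show that transcript levels are alike. Of 60 further interferon-inducible genes 12 were higher and 1 lower. Sp100, a nuclear body gene, rose by 1.82 ± 0.17 (5.24 to 6.17 in SP-C+, 7.21 to 7.82 in Axin2+ arrays), and Ifitm3, which blocks viral entry, by 1.31 ± 0.24. Ifi30, a lysosomal thiol reductase of antigen processing, was the 1 lower (-0.35 ± 0.07).

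Of 23 further signalling genes 3 were higher and 4 lower, with 8.61% and 8.95% of all genes called in these directions. The kinase gene Ikbke rose by 0.51 ± 0.14, and Ifnlr1, the specific chain of the type III interferon receptor, by 0.36 ± 0.08. The corepressor gene Irf2bp2 was lower (-0.51 ± 0.08), as was Myd88, an adaptor of Toll-like receptors (-0.48 ± 0.14). Axin2+ replicate 5 was the highest Axin2+ array for 43 of the 100 genes, against 20.8% of all genes. Each other Axin2+ array was highest for 12 to 17 of the 100. With each array centred on its median, 13 of the 100 were higher and 13 lower, against 7.04% and 19.9% of all genes.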

How the data were processed

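RNA from 10 samples, 5 per group, was measured on Affymetrix arrays from 100 ng of total RNA per the labels. The authors deposited a normalized table of log2 values for 41345 probe sets; per the submitters' processing notes oligo, RMA and limma were used, with versions and order not given in the sources used here. Base 2 was inferred from their span (1.69 to 14.16). Platform annotation gave 23521 probe sets 1 symbol, 1814 several and 16010 none; 1 probe set per gene, that with the highest mean, was kept. Groups came from sample titles. No label says that replicates are separate animals, so p-values measure the spread between these samples, which may be technical, and the number of arrays limits precision.

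The 2 groups entered a two-sided limma fit (version 3.58.1, R 4.3.3) without covariates, with Benjamini-Hochberg adjustment over 22180 genes at 0.05. Over all genes 1909 were higher and 1985 lower, and 1561 and 4412 after centring each array on its median. The fit was tested on simulated data. The interferon genes, the pathway and marker lists, the naming rule (any interferon gene; in each pathway list, the 2 called genes furthest up and the 2 furthest down) and the alternatives were chosen with earlier results of these data known. Csf1r, Adgre1, Ptprc, Cd3e, Cd79a, Vwf, Pdgfra, Ifnab, Ifnb1, Ifng, Uba7, Ube2l6 and Herc6 fall outside the naming rule and were named after their values were seen. Pathway names were matched by symbol, 2 of them through a synonym. Alternatives were other scalings, dim-gene filters, probe set rules, variance models, thresholds, a replicate block and left-out arrays.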

Additional observations from a re-analysis of the deposited data

Results flagged for a closer look

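Among 86 groups of 5 arrays examined (42 genes and their mean, in both populations), 7 held a value far from the other 4 by Dixon's criterion; chance gives about 1 in 20. Axin2+ replicate 5 accounted for 3 of them: Ifit1 at 7.39 (others 6.74 to 6.86), Oasl2 at 8.28 (others 6.61 to 6.90) and the mean over the 42 genes at 7.50 (others 7.15 to 7.22). In Axin2+ replicate 1, Irgm1 was low at 5.78 (others 6.16 to 6.29). In SP-C+ replicate 1, Cmpk2 was low at 7.04 (others 7.29 to 7.38) and Parp14 was low at 7.10 (others 7.56 to 7.75). In SP-C+ replicate 3, Bst2 was low at 4.96 (others 5.29 to 5.37).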

How the results depend on the processing

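The count of 14 higher interferon genes was 13 to 15 without 1 array, with 7.2% to 8.79% of all genes higher. Under the other alternatives run it was 10 to 16, with 6% to 14.5% of all fitted genes higher. With a minimum difference of 0.5 it was 9, against 5.95% of all genes. The 25th percentile filter left 38 of the 42 genes in the fit, of which 15 were higher. The 50th left 23 of the 42, of which 10 were higher, and kept 8 of the 14. Ifngr2 joined with quantile normalization, the 25th and the 50th percentile filter and the intensity trend. Isg20 joined with quantile normalization, the 50th percentile filter and no SP-C+ replicates 4 and 5. Of 943 values of single genes under alternatives, 840 kept direction and side of the threshold. The 1 lower gene became 0 with the replicate block, the mean over probe sets or all probe sets in the fit. The count was also 0 with no SP-C+ replicates 1, 2 and 3, a threshold of 0.01 or a minimum of 0.5. It became 2, Irf8 with Ifngr1, with median centring, the 25th percentile filter, the intensity trend or no SP-C+ replicates 4 and 5. The 50th percentile filter removed Irf8, and the 1 lower gene there was Ifngr1 (-0.23, adjusted p = 0.02425 in limma). Without 1 array the count ranged from 0 to 2. The 5 lower pathway genes became 3 with the replicate block, 13 with median centring, 3 with all probe sets, 10 without SP-C+ replicates 4 and 5, 2 without replicates 1, 2 and 3, 2 at 0.01 and 1 with the minimum of 0.5, and 3 to 7 without 1 array. Calls over all genes (3894) became 5973 with median centring, 2249 at 0.01 and 2008 with the minimum of 0.5. These counts change partly by construction, and other causes were not tested.

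Signs turned only in genes that passed in neither setting. With median centring, which moved the median difference of all genes by -0.093, these were Ifnar2 (-0.064), Irf9 (-0.044), Irf1 (-0.066), Irf7 (-0.062), Zbp1 (-0.024), Ifit3 (-0.00065), Oas2 (-0.0801), Oas3 (-0.0800) and Isg15 (-0.023). With quantile normalization they were Irf7 (-0.0084), Oas3 (-0.0199) and Mx1 (0.0093), and with array weights Oas2 (-0.0019). Without SP-C+ replicates 4 and 5 they were Ifnar2 (-0.0027), Irf1 (-0.16), Irf7 (-0.097), Oas2 (-0.056), Oas3 (-0.062), Mx1 (0.047), Gbp6 (0.16) and Irgm1 (0.019), and without replicates 1, 2 and 3 Trim30a (-0.13). Without 1 array, Irf1 ranged from -0.055 to 0.13, Irf7 from -0.063 to 0.13, Zbp1 from -0.063 to 0.20, Oas2 from -0.048 to 0.084, Oas3 from -0.028 to 0.061, Mx1 from -0.055 to 0.079, Gbp6 from -0.13 to 0.0998 and Irgm1 from -0.067 to 0.061.

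No label pairs the samples by replicate number. Deviations of same-numbered arrays correlated at -0.23 to 0.01 over genes, and 0 of 5 SP-C+ arrays matched their own number best. Correlations over all genes cannot settle whether same-numbered samples share a source. With the replicate block 13 interferon genes were higher, 12 of them among the 14, with Mx2 and Parp14 lost and Igtp gained (0.60, adjusted p = 0.00623 in limma). Motif matches were found in 14 genes in the upstream 250 bases alone and in 19 with the shorter motif.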
